A study of Sus scrofa with 20 samples.

Results

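AREG, FOS, DUSP6 and CDKN1A were followed in the ileal mucosa of piglets. They were taken by symbol from the platform annotation and accounted for 4 of 6765 named genes and 5 of 23999 tested probe sets, with 2 probe sets for DUSP6 and 1 for each of the others. A probe set is a group of short probes against the 3′ end of 1 or more transcripts. The 4 genes were chosen with their values in S35D against S28D piglets and in 21W35D against 21W28D piglets in view. Their values there, and the counts of calls made from them, describe that choice and support nothing.

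The study asked how age and weaning alter the ileal transcriptome. Each of 20 Affymetrix GeneChip Porcine Genome Arrays held RNA from scraped ileal mucosa of 1 crossbred piglet (Landrace × Large white × Duroc). Piglets weaned at 21 days of age were sampled 7 days later (21W28D, 3 arrays, 28 days of age) or 14 days later (21W35D, 3 arrays, 35 days of age), and they received a commercial diet. Suckling piglets, which stayed with the sow and had only her milk, were sampled at 14 (S14D, 3 arrays), 21 (S21D, 4 arrays), 28 (S28D, 4 arrays) and 35 (S35D, 3 arrays) days of age. No genotype differed by design between groups and no drug was part of the treatment, but every piglet was anesthetized with pentobarbital before the ileum was taken. The sources used here do not give the litter of each piglet, and a scrape of ileum holds epithelium, lamina propria and, in variable amount, lymphoid follicles. In such bulk RNA, fewer cells of a type and less RNA per cell cannot be told apart.

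AREG encodes amphiregulin, a ligand of the EGF receptor that is made as a membrane protein and released by cleavage. In the intestine, EGF receptor ligands act on crypt cell growth and on repair of the epithelium. A receptor with bound ligand activates RAS and, through the RAF and MEK kinases, the kinases ERK1 and ERK2. ERK signalling rapidly raises FOS, which encodes a partner of JUN in the AP-1 transcription factor, and it also raises DUSP6, a phosphatase that removes the activating phosphates from ERK and so closes a feedback loop. CDKN1A encodes p21, an inhibitor of cyclin-dependent kinases that is a target of p53 and can also be raised by ERK signalling.

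The labels of 2 groups were in doubt and bear on every result. All 3 arrays labelled S35D correlated more closely over all probe sets with the mean of 21W35D than with the mean of S28D, while 2 of 3 arrays labelled 21W28D were closer to S28D than to 21W35D. On the other hand, 2 of 3 arrays labelled 21W35D were closer to S28D than to S35D. CD3G, a chain of the T cell receptor complex singled out after its values were seen, was between 8.30 and 9.36 log2 units in all 6 arrays labelled weaned, and no array labelled suckling exceeded 8.10. With the labels S35D and 21W28D exchanged, those 6 arrays would be all those of 35-day-old piglets, so CD3G cannot decide between the labellings. As labelled, limma with the call rule given below found 640 of 23999 probe sets for S35D against S28D and 0 for 21W28D against S28D, and with the labels exchanged the 2 counts change places by construction. As labelled, the arrays high in the 4 genes were all those of 35-day-old piglets. With the labels S35D and 21W28D exchanged, they would be all those of weaned piglets. The 2 groups are therefore called by their labels, and values with the labels exchanged are given where they turn a direction.

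AREG had the widest range of the 4 genes. Its log2 values were 9.50, 9.50 and 9.44 in 21W35D piglets, against 5.07, 4.37 and 5.18 in the arrays labelled 21W28D. The arrays labelled S35D read 11.38, 8.47 and 9.15, against 6.0, 5.48, 6.0 and 5.18 in S28D piglets. S21D piglets had 5.93, 6.0, 5.56 and 5.07, and S14D piglets had 5.07, 7.60 and 8.04. The 6 arrays labelled 35 days lay between 8.47 and 11.38 and the other 14 between 4.37 and 8.04, so the 2 ranges did not overlap. The same held for FOS and both DUSP6 probe sets, 4 of 5 member probe sets, beside 0.488% of all probe sets. Replicates 2 and 3 of S14D were the highest of those 14, whereas replicate 1 of S14D was as low as arrays of S21D and of the group labelled 21W28D. Some values were equal to every digit in the deposited table: 5.07 was shared by S14D replicate 1, S21D replicate 4 and the array labelled 21W28D replicate 1, and 6.0 by S21D replicate 2 and S28D replicates 1 and 3. Over the whole table such ties made up 86.5% of values up to 3 log2 units, 11.9% of values over 5 and up to 7, and 0.551% of values over 9.

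In means, AREG was 9.48 ± 0.032 in 21W35D piglets and 4.87 ± 0.44 in the arrays labelled 21W28D (SD, n = 3 each), a fitted difference of 4.61 ± 0.72 log2 units (SE), or 24.3-fold. It averaged 9.67 ± 1.52 in the arrays labelled S35D (SD, n = 3) and 5.66 ± 0.41 in S28D piglets (SD, n = 4), a fitted difference of 4.00 ± 0.67 (SE), or 16.04-fold. Because low AREG values were tied, how far they lay above background is not known here and these folds are not exact. With the 12 arrays at or below the higher tied value all set to it, a setting added after the values were seen, the folds were 11.12 and 12.7. The spread within the group labelled S35D came largely from replicate 1, without which that difference was 3.15. Between 21W35D piglets and the arrays labelled S35D, AREG differed by -0.19 ± 0.72 (SE), and the 2 groups overlapped.

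FOS was high in every group and highest in the same 6 arrays. It had 12.23, 11.58 and 11.50 in 21W35D piglets, against 9.39, 8.61 and 9.30 in the arrays labelled 21W28D. It had 11.48, 11.41 and 11.08 in the arrays labelled S35D, against 9.22, 10.19, 9.39 and 9.01 in S28D piglets. The lowest of the 6 high arrays, 11.08, lay above the highest of the other 14, 10.19, which was S28D replicate 2. S21D piglets spread over 9.55, 10.07, 8.89 and 9.99, and S14D piglets over 9.42, 9.87 and 9.92. The difference was 2.67 ± 0.35 (SE), or 6.37-fold, between 21W35D piglets and the arrays labelled 21W28D, and 1.87 ± 0.32 (SE), or 3.66-fold, between the arrays labelled S35D and S28D piglets. FOS was also the 1 member whose 21W35D arrays all lay above the arrays labelled S35D, by 0.45 ± 0.35 in the means (SE), a difference close to its error. How many of all probe sets separated these 2 groups was not counted, so nothing particular to FOS is read from it.

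DUSP6 was measured by both of its probe sets, and they gave the same order of groups at the top. The brighter one had 11.55, 12.31 and 12.33 in 21W35D piglets, against 10.17, 10.17 and 10.44 in the arrays labelled 21W28D. The arrays labelled S35D were close together at 11.89, 11.79 and 11.81, against 9.97, 10.61, 10.63 and 10.37 in S28D piglets. S21D piglets had 11.08, 10.33, 10.28 and 10.66, and S14D piglets 10.09, 10.61 and 10.45. All 6 arrays labelled 35 days lay above the other 14, with 11.55 as the lowest of the 6 and 11.08, S21D replicate 1, as the highest of the 14. The differences were 1.80 ± 0.24 (SE), or 3.49-fold, in 21W35D piglets over the arrays labelled 21W28D, and 1.44 ± 0.23 (SE), or 2.71-fold, in the arrays labelled S35D over S28D piglets.

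The dimmer DUSP6 probe set ran about parallel. It had 9.74, 10.20 and 10.54 in 21W35D piglets and 8.0, 7.74 and 8.68 in the arrays labelled 21W28D. It had 9.78, 9.84 and 9.65 in the arrays labelled S35D and 7.98, 8.49, 8.63 and 7.57 in S28D piglets. The remaining arrays were between 7.66 and 8.92 in S21D piglets and between 7.87 and 8.73 in S14D piglets, again all below the 6 arrays labelled 35 days. The corresponding differences were 2.02 ± 0.36 and 1.59 ± 0.34 log2 units (SE), 4.05-fold and 3.01-fold. Across the 20 arrays the 2 probe sets correlated at r = 0.960, across the 14 lower arrays at 0.764 and across the 6 higher ones at 0.886. These are descriptions of 1 gene measured in duplicate on the same arrays.

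CDKN1A had the smallest range, and it alone reached the level of the arrays labelled 35 days in part of the youngest group. It had 9.88, 10.42 and 10.41 in 21W35D piglets, against 9.21, 9.11 and 8.76 in the arrays labelled 21W28D. It had 10.08, 10.05 and 10.38 in the arrays labelled S35D, against 8.99, 9.10, 9.17 and 9.11 in S28D piglets. S21D piglets had 9.08, 9.38, 9.17 and 9.52, and S14D piglets 9.45, 9.97 and 10.28. The lowest array labelled 35 days, 9.88, was below replicates 2 and 3 of S14D, so the 6 arrays did not stand clear of the other 14. The differences were 1.21 ± 0.20 (SE), or 2.31-fold, in 21W35D piglets over the arrays labelled 21W28D, and 1.08 ± 0.19 (SE), or 2.11-fold, in the arrays labelled S35D over S28D piglets.

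**Figure D1:**
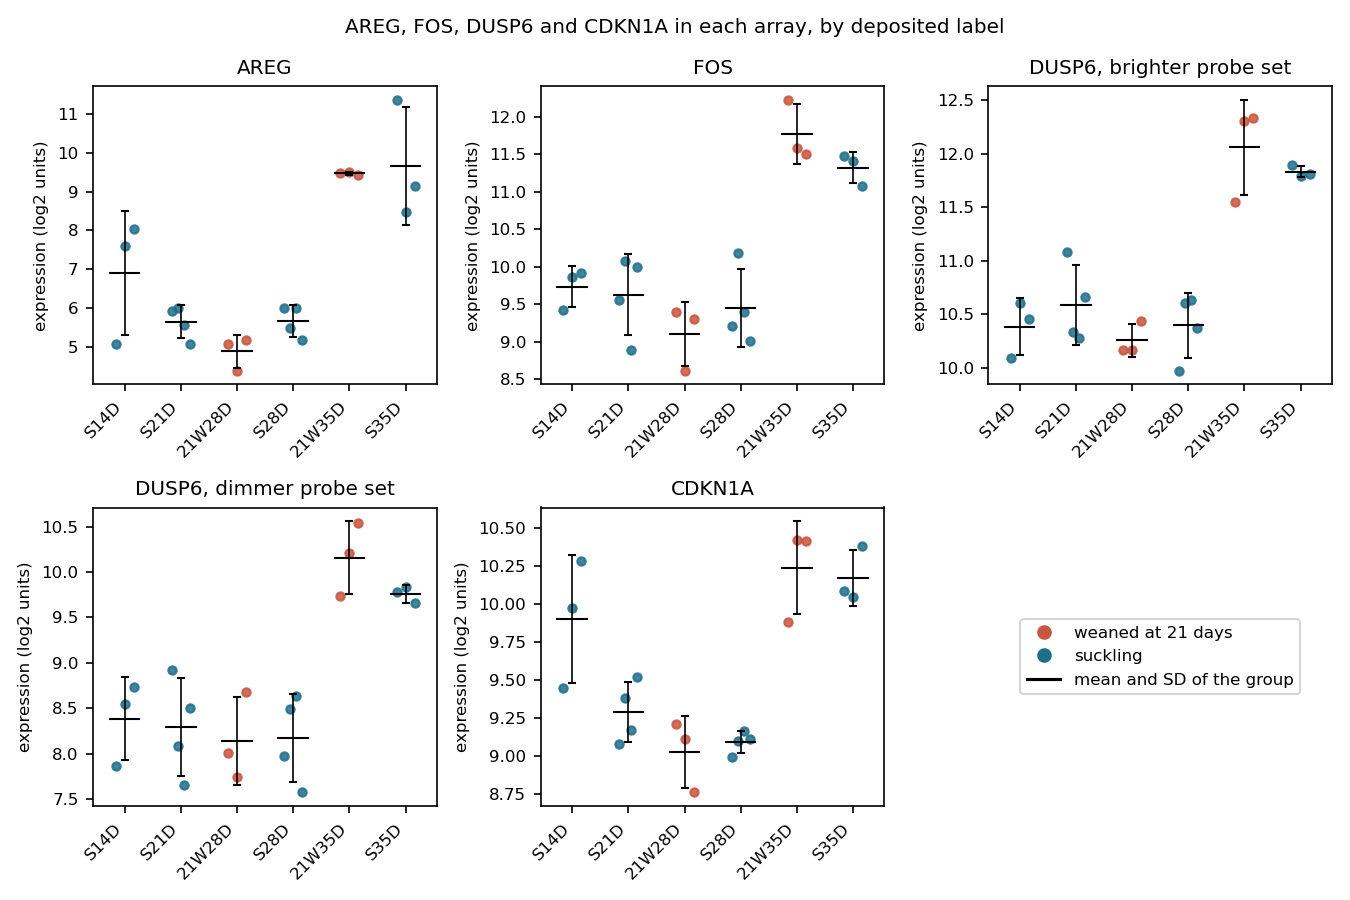
Log2 expression of the 5 probe sets in each of the 20 arrays by deposited label, in order of age with weaned piglets (red) left of suckling piglets (blue); each point is 1 array, and bars are the group mean and SD. For AREG, FOS and both DUSP6 probe sets all points of 21W35D and S35D lie above all others, while CDKN1A in S14D reaches 10.28.

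Ordered by group mean, 21W35D came before S35D for FOS, DUSP6 and CDKN1A, and S35D before 21W35D for AREG. The ranges of these 2 groups overlapped except for FOS, from which, as given above, nothing particular is read. S14D came next for AREG, FOS, CDKN1A and the dimmer DUSP6 probe set, and S21D for the brighter one. The range of the second group in the order did not overlap that of the third except for CDKN1A, where S35D and S14D differed by 0.27. From the third group downwards every pair of neighbours overlapped in all 5 probe sets, and the group labelled 21W28D came last in each of them.

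In calls at an adjusted p under 0.05 and at least 2-fold, by limma with Benjamini-Hochberg adjustment over 23999 probe sets, 5 of 5 member probe sets were called higher for S35D against S28D, beside 1.96% of all probe sets, and 5 of 5 had groups that did not overlap, beside 8.88%. For 21W35D against 21W28D, 4 of 5 were called higher, beside 0.0625% of all probe sets, the dimmer DUSP6 probe set was not, and 5 of 5 did not overlap, beside 4.52%. Higher values without overlap in both comparisons were found in 2.58% of all probe sets. These counts restate how the genes were chosen. For 21W35D against 21W28D, 16 probe sets in all (0.0667%) were called in either direction, and 12 (0.05%) were called in both comparisons. Left out singly, replicate 1 or replicate 3 of the group labelled S35D took the count for S35D down to 3 of 5, and replicate 2 of the group labelled 21W28D or replicate 2 or 3 of 21W35D took the count for 21W35D down to 2 of 5. The differences themselves kept their sign in these 2 comparisons in every such fit, with AREG between 4.36 and 4.76 in 21W35D piglets over the arrays labelled 21W28D. With the labels S35D and 21W28D exchanged, the differences of S35D from S28D became -0.79 for AREG, -0.35 for FOS, -0.14 for DUSP6 and -0.063 for CDKN1A, and that of 21W35D from 21W28D became -0.19 for AREG.

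A comparison that is untouched by the doubt about labels sets 21W35D piglets against S28D piglets, and it was added after the values were seen. There AREG was 3.81 ± 0.67 log2 units higher (SE), FOS 2.32 ± 0.32, DUSP6 1.67 ± 0.23 in the brighter and 1.99 ± 0.34 in the dimmer probe set, and CDKN1A 1.14 ± 0.19. It shares its arrays with the comparisons that chose the genes, and 5 of 5 probe sets were called beside 0.0958% of all probe sets, and 5 of 5 did not overlap beside 4.33%. The count fell to 2 of 5 without any 1 of S14D replicate 2, S21D replicate 2, S28D replicates 2 and 4, the array labelled 21W28D replicate 2 and 21W35D replicates 2 and 3, and to 3 of 5 without any 1 of S21D replicate 4, S28D replicates 1 and 3 and the array labelled S35D replicate 3. Age and weaning cannot be told apart in it.

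Weaned and suckling piglets of the same label age were compared next. At 28 days the arrays labelled 21W28D were lower than S28D piglets by 0.79 ± 0.67 log2 units for AREG (SE) and 0.35 ± 0.32 for FOS, and DUSP6 (-0.14 ± 0.23) and CDKN1A (-0.063 ± 0.19) differed by less than their errors. At 35 days 21W35D piglets differed from the arrays labelled S35D by 0.23 ± 0.24 for DUSP6 and 0.068 ± 0.20 for CDKN1A. No member was called in either comparison, in which 0% and 0.0208% of all probe sets were called. The difference between the 2 weaning contrasts was 0.60 ± 0.99 for AREG, 0.80 ± 0.48 for FOS, 0.37 ± 0.33 for DUSP6 and 0.13 ± 0.27 for CDKN1A (SE), and limma called 0 of 23999 probe sets for it, with 610 at an unadjusted p under 0.05. With the labels exchanged, the comparison at 28 days became 4.00 for AREG, 1.87 for FOS, 1.44 for DUSP6 and 1.08 for CDKN1A, and that at 35 days 4.61 and 2.67.

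**Figure D2:**
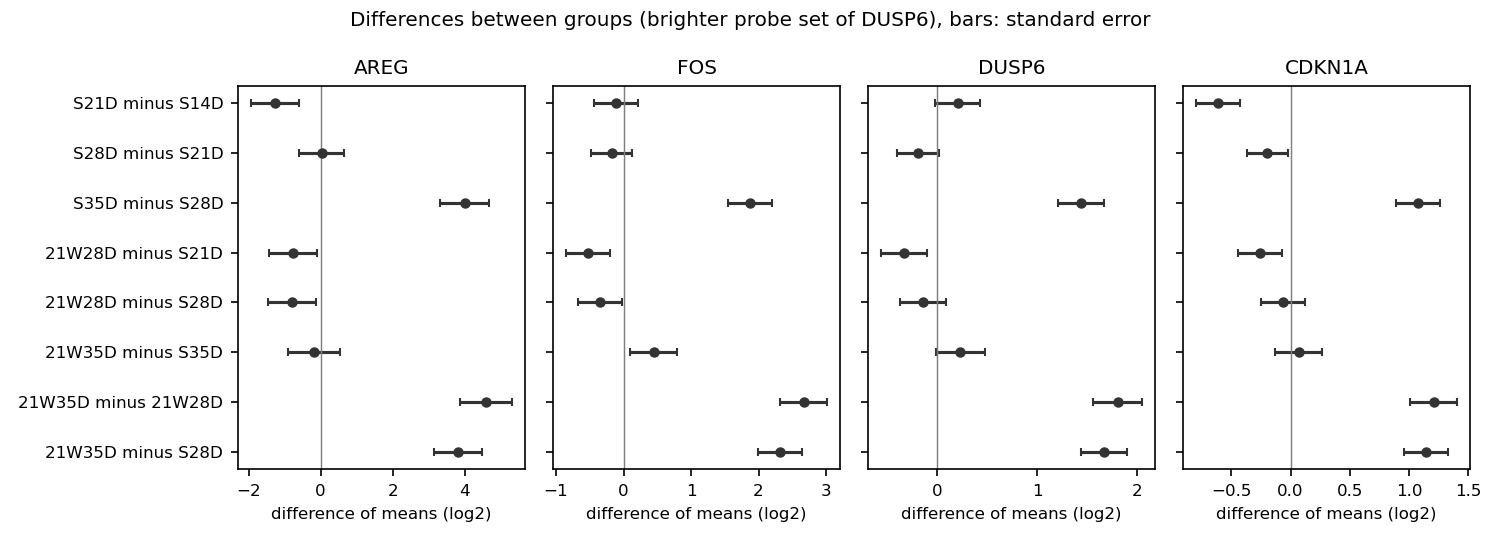
Differences of group means in log2 units for the 4 genes in 8 comparisons, as labelled; points are the fitted differences and bars their standard errors. AREG reaches 4.00 in S35D minus S28D and 4.61 in 21W35D minus 21W28D, and in the comparisons without an array labelled 35 days the values run from -1.26 (AREG in S21D minus S14D) to 0.21 (DUSP6 in S21D minus S14D).

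The step between 14 and 21 days of suckling shares no array with the comparisons that chose the genes, and it was tested in the same fit after its values had been seen. CDKN1A was lower in S21D piglets, 9.29 ± 0.20 (SD, n = 4), than in S14D piglets, 9.90 ± 0.42 (SD, n = 3), by 0.61 ± 0.19 log2 units (SE), with a limma adjusted p of 0.0406 that did not reach the 2-fold minimum. That p was under 0.05 in 12 of 20 fits with 1 array left out and ranged from 0.00489 to 0.226, with the highest value without S14D replicate 3. AREG was 5.64 ± 0.43 in S21D piglets (SD, n = 4) and 6.90 ± 1.60 in S14D piglets (SD, n = 3), a difference of -1.26 ± 0.67 (SE) with a limma adjusted p of 0.239. Without S14D replicate 1, which had 5.07, the difference was -2.18 and the limma adjusted p 0.0186, and without replicate 3 it was -0.70 and 0.775. Over all probe sets S14D replicate 1 correlated more closely with the mean of S21D (0.988) than with that of the other S14D arrays (0.986). Replicates 2 and 3 of S14D were closest to their own group. FOS differed by -0.11 ± 0.32 and DUSP6 by 0.21 ± 0.23 (SE), with limma adjusted p of 1.0 and 0.721. None of the 5 probe sets was called, beside 7.84% of all probe sets.

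From 21 to 28 days of suckling no member was called. S28D piglets differed from S21D piglets by 0.026 ± 0.62 for AREG, -0.18 ± 0.30 for FOS, -0.19 ± 0.21 for DUSP6 and -0.20 ± 0.17 for CDKN1A (SE). The arrays labelled 21W28D differed from S21D piglets, the age at weaning, by -0.77 ± 0.67, -0.53 ± 0.32, -0.33 ± 0.23 and -0.26 ± 0.19 for the same genes in that order. No member was called there either, and 0.00417% and 0% of all probe sets were called in these 2 comparisons. With the labels exchanged, 21W28D minus S21D became 4.03 for AREG, 1.69 for FOS, 1.24 for DUSP6 and 0.88 for CDKN1A, of which all but CDKN1A were called, beside 1.59% of all probe sets.

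The 4 genes had the same 6 arrays at or near the top, and their agreement differed between those arrays and the rest. Over all 20 arrays r between different members ran from 0.771 (DUSP6 with CDKN1A) to 0.906 (FOS with the dimmer DUSP6 probe set). Within the 14 other arrays AREG and CDKN1A had r = 0.756 and DUSP6 and CDKN1A 0.113. Within the 6 arrays labelled 35 days FOS and CDKN1A had r = -0.631, AREG and FOS 0.093, and the brighter DUSP6 probe set and CDKN1A 0.820. Replicate 1 of 21W35D showed this most plainly, with the highest FOS of all arrays (12.23) beside the lowest value of the brighter DUSP6 probe set (11.55) and the lowest CDKN1A (9.88) of the 6. The points share arrays and normalization, and these values are descriptions.

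**Figure D3:**
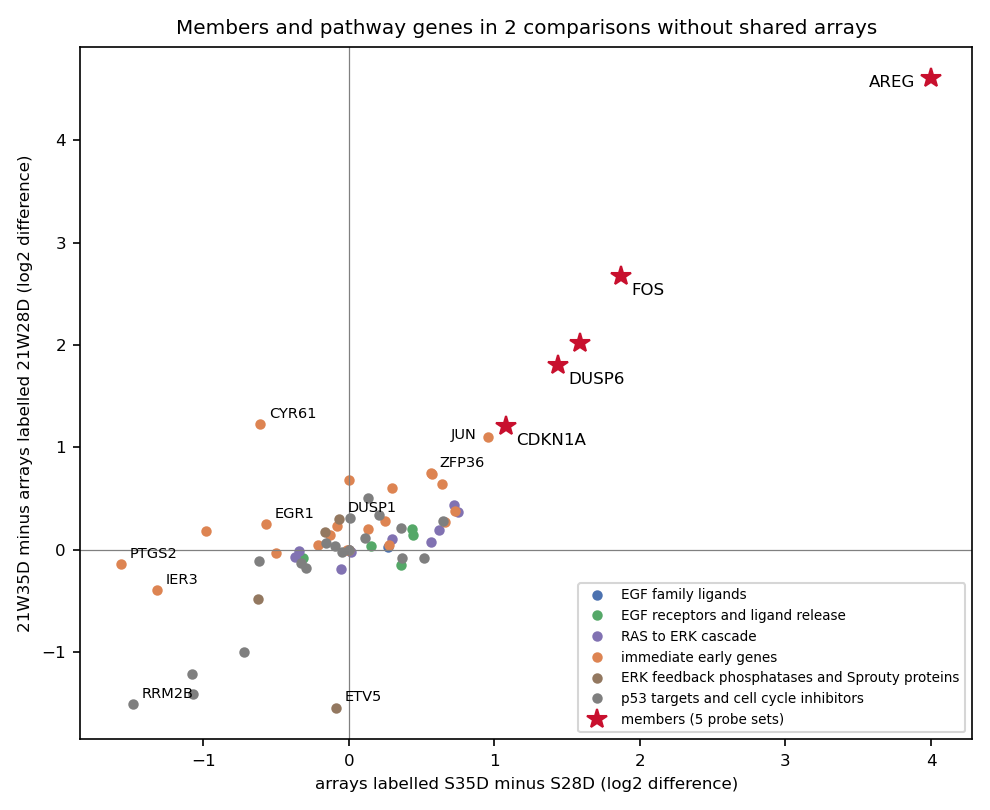
Log2 differences of 62 pathway genes (circles, coloured by list) and of the 5 member probe sets (stars) in arrays labelled S35D minus S28D (x) and in 21W35D minus arrays labelled 21W28D (y), 2 comparisons without a shared array. The stars lie at the upper right, with AREG at 4.00 and 4.61, JUN lies at 0.96 and 1.11, and most other genes lie within 1 unit of 0 on both axes.

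The neighbours of these genes in the pathway were looked up in 6 lists, of which 62 genes other than the members were measured, each by its brightest probe set. In the arrays labelled S35D 0 of 62 genes were higher and 1 was lower than in S28D piglets (1.61%, against 2.67% of all probe sets), and 13 had an unadjusted p under 0.05. In 21W35D piglets 0 of 62 were called against the arrays labelled 21W28D, with 6 at an unadjusted p under 0.05, where 0.0667% of all probe sets were called. Against S28D piglets 0 of 62 were called, with 15 at an unadjusted p under 0.05, where 0.108% of all probe sets were called. With shares so low, the 2 counts of 0 in 21W35D piglets say nothing particular about these genes. The shares are those of the call rule. How many of all probe sets had an unadjusted p under 0.05 was not counted for these comparisons, so nothing is read from the 13, 6 and 15.

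Of the ligands, EGF, TGFA and HBEGF were measured, 3 of 9 on the list, and the others are not analysed here. HBEGF stood at the floor of the table, 2.08, in all 20 arrays. TGFA averaged 2.60 in S14D piglets and 2.09 in every other group, and EGF between 2.12 and 2.55. AREG was thus the 1 measured ligand with values clearly above the floor, although levels of different probe sets are not on a common scale. The receptor gene EGFR averaged 8.99 ± 0.28 in 21W35D piglets and 8.84 ± 0.41 in the arrays labelled 21W28D (SD, n = 3 each). It averaged 9.16 ± 0.19 in the arrays labelled S35D (SD, n = 3), against 8.72 ± 0.50 in S28D piglets (SD, n = 4), and it was not called in either comparison. Of the other 4 genes for receptors and ligand release, ADAM17, whose product is the main sheddase of amphiregulin, averaged 3.38 in 21W35D piglets and 3.45 in the arrays labelled 21W28D, and 3.21 in the arrays labelled S35D and 3.53 in S28D piglets. ADAM10 stayed within 1 unit of the floor. LRIG1, a negative regulator of the EGF receptor, differed by 0.20 and 0.43 in the same 2 comparisons and RHBDF2, which escorts ADAM17, by -0.15 and 0.36, none of them called.

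Of the RAS to ERK cascade 9 of 26 genes were measured and none was called. In the arrays labelled S35D the median difference from S28D piglets was 0.30, beside 0 over all probe sets, and RPS6KA3, an ERK-activated kinase, was 0.72 ± 0.18 higher (SE) with a limma adjusted p of 0.0348, under 2-fold. MAPK3, which encodes ERK1, was 0.75 ± 0.23 higher (SE) there with an adjusted p of 0.0659. In 21W35D piglets the median difference from the arrays labelled 21W28D was 0.079.

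The immediate early genes, to which FOS belongs, are transcribed within minutes of stimulation. Of 38 listed genes 22 were measured, and in the arrays labelled S35D 0 were called higher and 1 lower than in S28D piglets, beside 2.67% of all probe sets in either direction, with a median difference of 8.79e-04 log2 units and a positive difference in 12. In 21W35D piglets 0 of 22 were called against the arrays labelled 21W28D, beside 0.0667% of all probe sets. The median difference there was 0.24, beside 0 over all probe sets, and 17 differences were positive.

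JUN, on the same list, encodes the partner of FOS in AP-1. It had 11.36, 12.19 and 11.62 in 21W35D piglets, against 11.25, 9.72 and 10.88 in the arrays labelled 21W28D. It had 12.07, 11.35 and 11.20 in the arrays labelled S35D, against 10.75, 10.41, 10.65 and 10.53 in S28D piglets. Its ranges did not overlap in either pair, and 2.58% of all probe sets were likewise higher without overlap in both. Its differences of 1.11 ± 0.33 and 0.96 ± 0.31 (SE) had limma adjusted p of 0.298 and 0.0783. ZFP36, whose protein promotes the decay of unstable mRNAs, was 0.75 ± 0.17 and 0.56 ± 0.16 higher (SE) in the same 2 comparisons, with limma adjusted p of 0.144 and 0.0459, and neither difference reached 2-fold. JUN and ZFP36 were singled out after their values were seen.

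Other classical early genes had differences of either sign. EGR1, a zinc finger factor usually raised with FOS, had 10.86, 8.58 and 10.82 in 21W35D piglets, against 9.23, 9.95 and 10.32 in the arrays labelled 21W28D. It had 9.48, 9.10 and 9.45 in the arrays labelled S35D, against 9.31, 10.12, 10.50 and 9.70 in S28D piglets. The groups overlapped in both pairs, and the differences were 0.25 ± 0.49 and -0.57 ± 0.46 (SE). IER3, an early gene that modulates survival and ERK signalling, was the 1 gene called: it had 5.26, 5.83 and 6.33 in the arrays labelled S35D, against 6.94, 6.90, 7.69 and 6.98 in S28D piglets, a fall of 1.32 ± 0.32 log2 units (SE) with a limma adjusted p of 0.0288. That call was lost without S28D replicate 2, 3 or 4 or without the array labelled S35D replicate 1. With the labels exchanged it belonged to 21W28D against S28D.

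The genes of ERK feedback other than DUSP6 also stayed uncalled after 21 days. Of 16 listed genes 4 were measured, with a median difference of -0.13 in the arrays labelled S35D from S28D piglets and of -0.15 in 21W35D piglets from the arrays labelled 21W28D. DUSP1, a nuclear phosphatase of the same family, had 11.11, 11.60 and 11.01 in 21W35D piglets, against 11.16, 10.82 and 10.83 in the arrays labelled 21W28D. In the arrays labelled S35D it had 10.56, 11.01 and 10.89, against 11.05, 10.89, 10.73 and 10.87 in S28D piglets. Its groups overlapped in both pairs. ETV5, a transcription factor that usually follows ERK activity, differed by -1.54 ± 0.96 between 21W35D piglets and the arrays labelled 21W28D (SE), with a limma adjusted p of 0.609.

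Of p53 targets and cell cycle inhibitors 19 of 33 genes were measured, and 0 were called in either comparison that chose the members. Their median differences were -0.048 in the arrays labelled S35D from S28D piglets and -0.020 in 21W35D piglets from the arrays labelled 21W28D. RRM2B, a p53-induced subunit of ribonucleotide reductase, differed by -1.48 ± 0.75 and -1.50 ± 0.80 (SE) in the same order, with adjusted p of 0.247 and 0.565. PCNA, the sliding clamp of replication to which p21 binds, was 12.64, 10.96 and 12.69 in 21W35D piglets, against 12.48, 13.24 and 13.55 in the arrays labelled 21W28D, and was not called.

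Most calls among the pathway genes fell between 14 and 21 days, as did most calls among all probe sets. There 2 of 62 were higher and 5 lower in S21D piglets than in S14D piglets (11.3%, against 7.84% of all probe sets). With a count this small beside that share, nothing particular to the pathway genes is read from it. PCNA rose by 1.83 ± 0.50 log2 units (SE) and DUSP14, a phosphatase of MAP kinases, by 1.203 ± 0.35. PTGS2, which encodes the inducible cyclooxygenase, fell by 2.60 ± 0.64, PLK2, a polo-like kinase, by 1.65 ± 0.41, XPC, a DNA damage sensor, by 1.21 ± 0.35, SESN1, a sestrin induced by p53, by 1.205 ± 0.28, and SGK1, a serum- and glucocorticoid-induced kinase, by 1.06 ± 0.33. In the same step CDKN1A was lower without reaching the 2-fold minimum, as given above, and no member probe set was called. PTGS2 had 3.40, 3.37, 4.19 and 3.14 in S21D piglets, against 4.62, 6.87 and 6.89 in S14D piglets, so that replicates 2 and 3 of S14D were high and replicate 1 lower, as for AREG and CDKN1A. The count of 7 depended on single arrays: it was 13 without S14D replicate 1 and 0 without S14D replicate 2 or 3, and 4, 4 and 3 without S21D replicates 1, 2 and 3.

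The genes whose values were most like each member over the 20 arrays were sought among 6647 probe sets of 5224 genes that reached 4 log2 units in 3 or more arrays. For AREG they were TBCCD1 (r = 0.932), ATAD1 (0.928), SPATS2L (0.925), IFRD1 (0.923) and SPCS3 (0.922). For CDKN1A they were SDCBP2 (0.923), FHL2 (0.914), the tight junction gene CLDN4 (0.912), MAPK6, an atypical MAP kinase (0.901), and the tetraspanin gene CD9 (0.898). Both lists kept high values within the 14 arrays not labelled 35 days, with r of 0.717 to 0.903 for AREG and 0.860 to 0.938 for CDKN1A, and the AREG list also within the 6 arrays labelled 35 days (0.577 to 0.805).

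For FOS the most like were PHLDA2 (0.920), the interferon gamma receptor gene IFNGR1 (0.856), LOC100522818 (0.854), OXCT1, an enzyme of ketone body use (0.833), and SLC15A1, the intestinal peptide transporter (0.827). For DUSP6 they were LOC100522818 (0.898), IFNGR1 (0.873), PHLDA2 (0.860), KHNYN (0.851) and SELENOS (0.850), so 3 genes were named for both. Within the 6 arrays labelled 35 days r with FOS ran from -0.952 to 0.361, and within the other 14 arrays r with DUSP6 ran from 0.126 to 0.362. Of all 17 genes, 11 were called in the arrays labelled S35D against S28D piglets and 0 in 21W35D piglets against the arrays labelled 21W28D, beside 2.67% and 0.0667% of all probe sets. PHLDA2 averaged 11.17 ± 0.12 in 21W35D piglets and 9.34 ± 0.44 in the arrays labelled 21W28D (SD, n = 3 each), and 11.02 ± 0.66 in the arrays labelled S35D (SD, n = 3) and 9.22 ± 0.39 in S28D piglets (SD, n = 4). These genes were picked by the same arrays and carry no test.

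**Figure D4:**
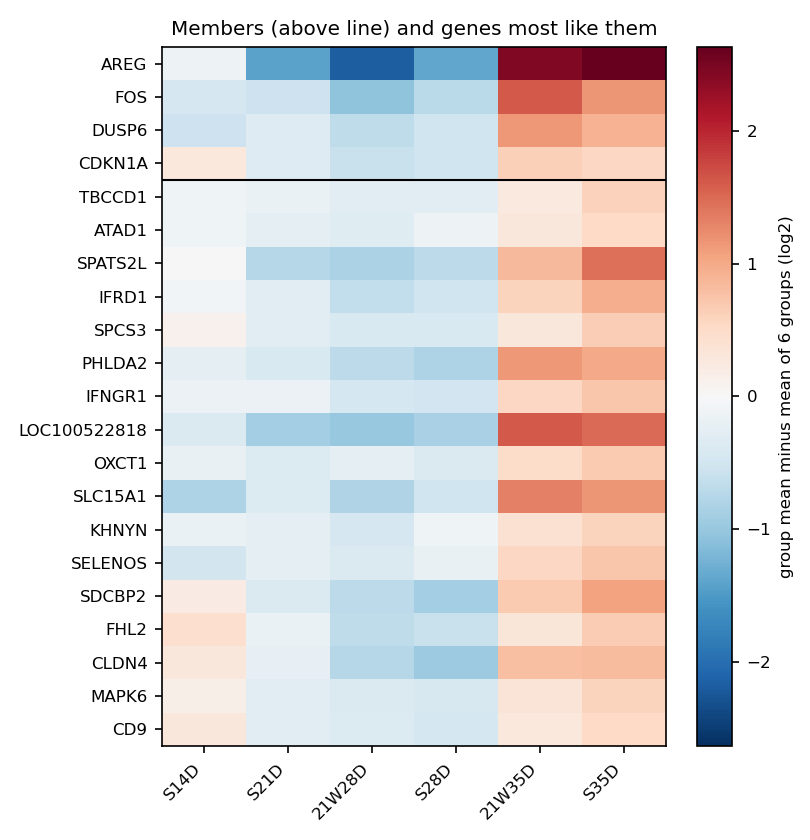
Group means of the 4 members (above the line) and of the 17 genes most like them, each as the log2 difference from its own mean over the 6 groups, with groups in order of age and weaned left of suckling. The 21W35D and S35D columns are above the mean (red) in every row, and S14D is near or above it for AREG, CDKN1A and several of the genes like them.

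Markers of some cell types also differed between these groups, but not in step with the 4 genes throughout. The mean of 9 of 11 enterocyte markers was 13.11 to 13.84 log2 units in 21W35D piglets and 12.88 to 13.50 in the arrays labelled 21W28D, and 13.52 to 13.81 in the arrays labelled S35D and 12.52 to 13.23 in S28D piglets. These ranges overlapped in the first pair and not in the second. The enterocyte mean in S14D piglets was 13.20 to 13.53. AREG, FOS and both DUSP6 probe sets were lower there than in every array labelled 35 days, and CDKN1A was not. From replicate 1 to 3 of S14D the enterocyte mean rose (13.20, 13.46 and 13.53). AREG (5.07, 7.60 and 8.04), CDKN1A (9.45, 9.97 and 10.28), FOS and the dimmer DUSP6 probe set rose likewise, and the brighter DUSP6 probe set did not. CDH17 and KRT18 of the enterocyte list were called in the arrays labelled S35D against S28D piglets, at 1.10 ± 0.26 and 1.36 ± 0.36 (SE). The mean of 2 of 7 B cell markers was 7.67 to 12.30 in 21W35D piglets and 12.14 to 12.94 in the arrays labelled 21W28D, and 9.57 to 12.12 in the arrays labelled S35D and 12.32 to 13.17 in S28D piglets. The lowest values came from single arrays, 21W35D replicate 2 (7.67) and the array labelled S35D replicate 1 (9.57). S14D piglets had 7.86 to 12.19, and there the 3 arrays had the reverse order in AREG, with 8.04 beside 7.86, 7.60 beside 11.03 and 5.07 beside 12.19. The arrays labelled S35D also had the reverse order, with AREG of 11.38, 8.47 and 9.15 beside 9.57, 12.12 and 11.81. In 21W35D piglets AREG hardly varied, with 9.50, 9.50 and 9.44 beside 12.30, 7.67 and 12.15. The part of enterocyte and B cell markers in the result was not tested.

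Of the other lists, the mean of 6 of 8 smooth muscle markers was 10.60 in the array labelled S35D replicate 3 and at most 9.13 elsewhere, and the members in that array lay within the range of the other 5 arrays labelled 35 days except for FOS (11.08) and the dimmer DUSP6 probe set (9.65), which were the lowest of the 6. The mean of 7 of 8 T cell markers was 7.11 to 8.06 in 21W35D piglets and 6.92 to 7.75 in the arrays labelled 21W28D, and 6.66 to 7.04 in the arrays labelled S35D and 6.22 to 7.23 in S28D piglets, with CD4 near the floor in all arrays. Goblet cell markers (4 of 6) were 13.02 to 13.27 in the arrays labelled S35D and 11.53 to 13.23 in S28D piglets. Of 6 myeloid markers CD14, ITGAM, S100A8 and S100A9 stayed within 1 unit of the floor in every array, and of 4 fibroblast markers COL1A2 and COL3A1 did. Heat shock genes (5 of 7), which rise with handling, were 12.02 to 12.39 in 21W35D piglets and 11.86 to 12.27 in the arrays labelled 21W28D, and 12.08 to 12.60 in the arrays labelled S35D and 12.11 to 12.46 in S28D piglets. Mast cell markers (2 of 6) lay between 4.61 and 6.18 and globin and other erythrocyte markers (4 of 6) between 4.17 and 7.43, with the highest erythrocyte value in S14D replicate 1. Their part in the result was not tested.

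**Figure D5:**
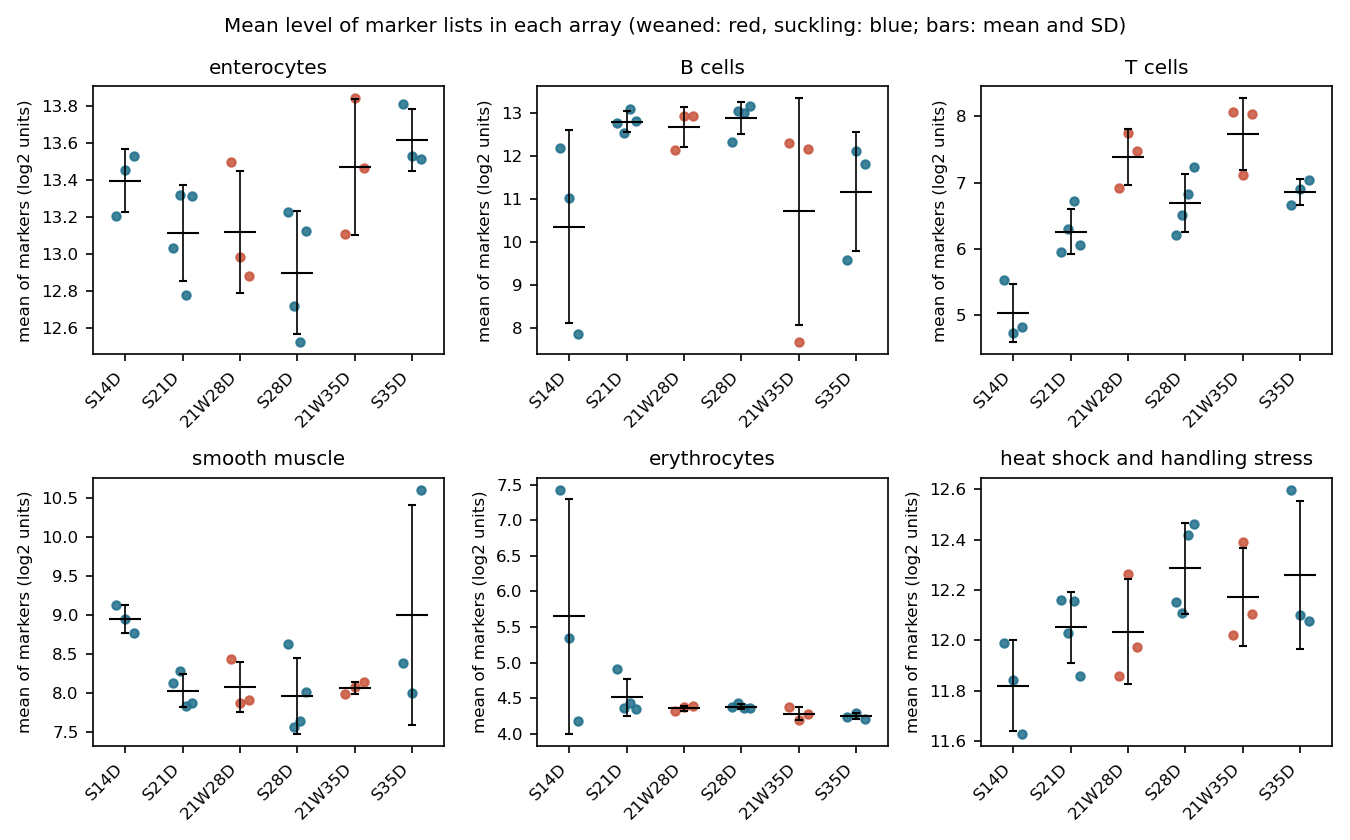
Mean log2 level of 6 marker lists in each array by deposited label, weaned left of suckling at each age; points are arrays and bars the mean and SD of the group. Enterocyte markers of the arrays labelled S35D (13.52 to 13.81) lie above those of S28D (12.52 to 13.23), and B cell markers spread widely in S14D, 21W35D and S35D.

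Across the arrays, medians were 5.07 to 5.35 log2 units, the lowest value was 2.08 and the highest 16.41, and 41.6% of values were less than 1 unit above the lowest. ACTB, a reference gene in PCR, was 14.21 to 14.24 in 21W35D piglets and 13.98 to 14.54 in all other arrays. The difference between the 3′ and 5′ probe sets of actin, which grows as RNA is degraded, was 5.26 to 5.85 in 21W35D piglets and 4.85 to 5.84 in the arrays labelled 21W28D, and 4.64 to 5.58 in the arrays labelled S35D and 4.72 to 5.22 in S28D piglets. The same difference for GAPDH was 2.20 to 2.43 in 21W35D piglets and 1.68 to 3.12 in the arrays labelled 21W28D. It was 2.00 to 2.86 in the arrays labelled S35D and 1.97 to 2.60 in S28D piglets. The part of either control in the result was not tested.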

How the data were processed

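The deposited values of 20 arrays were used. The authors normalized them with gcRMA and log-transformed them, so that the deposited log2 values were corrected for background by GC content, quantile-normalized and summarized per probe set. GCOS 1.2 and GCRMA are the tools in the submitters' processing notes. Of 24123 probe sets, 124 controls were left out. Of the rest, 10069 had 1 symbol in the platform annotation, 198 several and 13732 none. limma 3.58.1 in R 4.3.3 estimated 1 mean per group from all 20 arrays for 7 comparisons and 1 interaction, with 1 comparison added later, and Benjamini-Hochberg adjustment over 23999 probe sets. The script was tested on simulated data. The number of arrays limits the precision. The p-values measure the spread between piglets of unknown litter. By the paper, the piglets of these groups came from the litters of only a few sows. Some of the 20 piglets therefore shared a litter, which the fit treats as independent animals.

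The members and the 6 pathway and 10 marker lists were chosen with earlier results of these data known. Named were all members, up to 4 called genes per list and comparison, the 5 genes most like each member, the EGF ligands and receptors, ACTB and, as marked, genes chosen after their values were seen. The study describes 4 piglets for S14D and for 21W28D, of which 3 each were analysed here. Alternatives were a filter on dim probe sets, no fold minimum, only the groups compared, a variance trend, median centring, repeated quantile normalization, the mean of probe sets, the methods' t-test, the replicate block, exchanged labels and each array left out, and, added later, the doubted groups left out and AREG raised to its higher tied value. Figures were drawn with Python 3.11.15, numpy 2.4.6 and matplotlib 3.10.9. No sequence table was used here.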

Additional observations from a re-analysis of the deposited data

Results flagged for a closer look

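None of the 5 member probe sets had an array standing apart within S21D or S28D, the 2 groups of 4 arrays, which alone could be checked. Among 41 probe sets in these 2 groups (82 checks), 6 had 1 array far from the other 3, measured as its gap to the nearest array over the range of the group, and chance gives about 1 in 20. S28D replicate 3 was high for IER3 (7.69 against 6.98 next, gap 0.897 of the range) and for PTGS2 (5.77 against 3.47, 0.963), and S28D replicate 1 was low for DUSP14 (6.14 against 6.69, 0.869). S21D replicate 2 was high for CYR61 (6.42 against 4.09, 0.924), and S21D replicate 4 was low for PLK2 (4.35 against 4.52, 0.948) and high for XPC (8.49 against 7.77, 0.970). The fall of IER3 in the arrays labelled S35D was among the calls that were lost without S28D replicate 3.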

How the results depend on the processing

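The differences of the 4 genes moved by less than the spread between replicates in every setting that recomputed them, with these exceptions. They moved further with the labels S35D and 21W28D exchanged and, in some comparisons of AREG, with its low values raised. With AREG raised to its higher tied value, added later, its difference was 3.48 in 21W35D piglets over both 21W28D and S28D, and 0 for 21W28D against S28D and S21D. Every array of S21D, S28D and 21W28D was at or below that value. The differences of 0 and the equal values of 3.48 are therefore fixed by the setting. With the labels exchanged, S35D minus S28D became -0.79 for AREG, -0.35 for FOS, -0.14 for DUSP6 and -0.063 for CDKN1A, and 21W35D minus 21W28D became -0.19 for AREG. By construction the exchange gives each group's values to the other. The count of 7 pathway genes between S21D and S14D was 12 with no fold minimum, 4 with only the groups compared, 4 by the methods' t-test with Benjamini-Hochberg adjustment, 3 with the doubted groups left out and 0 to 13 with 1 array left out. The count of 1 between S35D and S28D was 3 with no fold minimum, 0 with only the groups compared, 3 by the methods' t-test, 0 by that test after adjustment, 0 with the labels exchanged and 0 to 1 with 1 array left out. With the labels exchanged 21W28D against S28D had 1 in place of 0. The methods' t-test gave 1 for 21W35D against S28D in place of 0. The counts of 0 for 21W35D against S35D, 21W28D and S28D were 0 to 1 with 1 array left out, and the 1 appeared in each without 21W35D replicate 2. Apart from the exchange and the smaller fits, the cause was not tested. Replicate numbers did not pair the arrays: deviations from group means correlated above 0.1 in 18 of 46 same-numbered pairs and under -0.1 in 19 (median r 0.042), and for 6 of 20 arrays the closest array had the same number. The replicate block gave 5 pathway genes between S21D and S14D and 1 between S35D and S28D and changed no count by over 1.5 times. Near the floor, where 41.6% of values lie, differences cannot be seen.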
